A study of Mus musculus with 4 samples.

Results

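Proteasome subunit genes were examined in macrophages sorted from tumor-bearing mouse lungs. The members are all rows of the deposited gene table whose name is PSM followed by A, B, C, D or E and a number, 43 of 27433 rows, each present once and printed here in mouse style (Psmb8 for PSMB8). Following the rule, 5 of them were set apart as immunoproteasome genes (Psmb8, Psmb9, Psmb10, Psme1 and Psme2), and the other 38 formed the comparison set. The rule uses names alone and no measured value. Recipients of both groups carried the same tumor model alleles, among them Lkb1fl/fl, from which Cre removes Lkb1, and were lethally irradiated. They were then given bone marrow of 1 of 2 genotypes, Tmem173fl/fl without Cre (WTKL) or Tmem173fl/fl;Lyz2-Cre (LYZKL), and an adenovirus carrying Cre (Ad-Cre) by the nose. Tmem173 encodes STING, the adaptor that carries the signal of cytosolic DNA to interferon genes, and both marrows carry its floxed allele. CD11b positive, Ly6G negative, CD64 positive and Siglec-F low cells were sorted 8 weeks after the virus, giving 2 libraries per group. No source used here gives the mice's ages. Several features limit the model. Lyz2-Cre acts in neutrophils and other myeloid cells as well as in macrophages, the WTKL marrow has no Cre, and lung cells of the irradiated host that persist carry the recipient's genes. Whether each library is a separate animal is not stated in the labels, so p-values measure only how far these libraries spread, and that spread may be technical.

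The proteasome is the cell's main machine for degrading proteins tagged with ubiquitin. Its barrel, the 20S core, is made of outer rings of alpha subunits (Psma genes) and inner rings of beta subunits (Psmb genes), and its cutting sites lie in the beta subunits encoded by Psmb6, Psmb7 and Psmb5. The 19S regulator caps the barrel: its ATPases (Psmc genes) unfold substrates, and its non-ATPase subunits (most Psmd genes) bind ubiquitin chains and remove them. Interferon-gamma induces a second set of cutting subunits, in which Psmb9 takes the place of Psmb6, Psmb10 that of Psmb7 and Psmb8 that of Psmb5. It also induces the PA28 cap made of Psme1 and Psme2. The resulting immunoproteasome favors peptides that fit MHC class I, and macrophages and dendritic cells are known for high levels of it.

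Promoter sequences of 3 members are shown as examples. Psmb9 shares its promoter region with a peptide transporter gene, and Psme1 and Psmb5 each hold a match to a motif. Psmb9 and Psme1 were lower in LYZKL, as were all 5 immunoproteasome genes and the transporter gene, while the constitutive Psmb5 was not. A link between these sequences and the differences was not tested. The sequences are from RefSeq on GRCm38.p6, 280 bases each, from 250 bases before the annotated start to 30 after it. Capitals mark, for Psmb9, the 225 bases between its RefSeq start and that of Tap1. For Psme1 they mark a match to the interferon-stimulated response element (GAAA, 2 bases of any kind, GAAA) on the other strand. That match begins 9 bases after the RefSeq start. For Psmb5 they mark a match to the antioxidant response element TGACNNNGC, before the start. Gene spans given below are those of another annotation, GENCODE M21, whose starts differ. In GENCODE M21 the exons of Psmb9 and Tap1 share 212 bases, and the Psmb9 and Psme1 windows lie inside those genes. The windows are chr17:34187301-34187580 (minus strand) for Psmb9, chr14:55578244-55578523 (plus strand) for Psme1 and chr14:54617966-54618245 (minus strand) for Psmb5.
Psmb9: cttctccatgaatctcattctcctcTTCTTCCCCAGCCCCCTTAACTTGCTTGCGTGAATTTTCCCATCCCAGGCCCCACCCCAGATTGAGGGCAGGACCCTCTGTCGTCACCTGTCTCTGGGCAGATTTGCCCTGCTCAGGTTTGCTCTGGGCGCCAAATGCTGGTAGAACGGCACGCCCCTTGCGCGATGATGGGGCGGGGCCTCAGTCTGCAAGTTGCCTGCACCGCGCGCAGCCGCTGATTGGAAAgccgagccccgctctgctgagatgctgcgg
Psme1: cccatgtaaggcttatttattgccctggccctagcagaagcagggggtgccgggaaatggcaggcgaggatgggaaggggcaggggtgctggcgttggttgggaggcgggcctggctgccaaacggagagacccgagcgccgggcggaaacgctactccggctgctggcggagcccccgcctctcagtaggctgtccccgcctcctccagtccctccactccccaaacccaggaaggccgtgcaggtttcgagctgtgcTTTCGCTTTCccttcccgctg
Psmb5: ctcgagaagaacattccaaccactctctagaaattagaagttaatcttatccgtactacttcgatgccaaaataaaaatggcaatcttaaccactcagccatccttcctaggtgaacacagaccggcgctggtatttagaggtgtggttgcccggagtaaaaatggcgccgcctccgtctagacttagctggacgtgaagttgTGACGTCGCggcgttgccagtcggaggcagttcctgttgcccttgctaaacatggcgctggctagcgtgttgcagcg

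Both motifs were searched on both strands in windows of 300 bases, 250 before and 50 after each start, for the 36 members with a window. The interferon-stimulated response element was found in Psme1, Psmb3, Psmd4 and Psmd9, and in 3.99% of all 27025 gene symbols in the promoter table. The antioxidant response element TGACNNNGC, the motif of the Nrf1 and Nrf2 factors, was found in Psmb5, Psmb6, Psmc6, Psmd9, Psmd12 and Psme4, 6 of 36, against 13.99% of all symbols. Psmd9 held both motifs, at different places. Of the 5 immunoproteasome genes, 1 held the interferon-stimulated response element and 0 the antioxidant response element. A match is a description of letters and not a site in use. Psmb9 and the transporter gene Tap1 point away from each other, and 275 bases of their 300-base windows are the same. No window was matched for Psma8, Psmb1, Psmb2, Psmb7, Psmc3, Psmd3 and Psmd7.

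Values are FPKM, read counts scaled by transcript length and by library total. Comparisons of level between genes therefore depend on the lengths used, which no source used here gives. Low values in the table are multiples of 1 read, which gave library totals of 15466117 to 22867836 reads. The 42 members with a mean of at least 1 FPKM rested on 27 to 19560 reads per library. The floxed gene Tmem173 was at 15.4 and 15.2 FPKM in WTKL, against 5.02 and 4.75 FPKM in LYZKL, the direction the labels imply. Macrophage markers, 10 of 11 with a row of their own (Itgam has 2), summed to 1603 to 1690 FPKM in WTKL and 1587 to 1607 FPKM in LYZKL. Of these 10 markers 7 had a log2 difference below 0 (median −0.11), with 3 lower and 0 higher at an unadjusted p under 0.05 in limma. Fcgr1, which encodes the sort marker CD64, was at 80.3% of the WTKL mean. The 12 neutrophil markers summed to 1881 to 2403 FPKM in WTKL and 3650 to 5601 FPKM in LYZKL, although Ly6g and Camp were below 1 FPKM in every library. S100a9 made up most of that sum, at 2061 and 1562 FPKM in WTKL, against 4860 and 3079 FPKM in LYZKL. All 10 tested neutrophil markers had a log2 difference above 0 (median 0.98), 7 of them at an unadjusted p under 0.05 in limma (10.9% of all genes). The 14 T and NK cell markers summed to 101.5 to 107.8 FPKM in WTKL and 60.1 to 75.0 FPKM in LYZKL, with Ncr1 and Klrb1c below 1 FPKM throughout. All 11 tested T and NK cell markers had a log2 difference below 0 (median −0.59), 8 of them at an unadjusted p under 0.05 in limma (7.85% of all genes). Marker sums of B and plasma cells (15.8 to 22.2 against 13.8 to 17.8 FPKM), dendritic cells (14.01 to 17.94 against 11.1 to 14.8), alveolar macrophages (1347 to 1601 against 1233 to 1270), epithelium and tumor (38.6 to 44.0 against 36.8 to 38.4) and endothelium and stroma (8.41 to 9.50 against 8.33 to 8.67) were also recorded, WTKL first. The alveolar macrophage sum was lower in LYZKL while 4 of its 6 tested markers were higher in value (median log2 difference 0.35). In limma 1 of them passed the adjusted threshold (0.292% of all genes, either direction). At an unadjusted p under 0.05 in limma, 3 were higher (10.9% of all genes) and 1 lower (7.85%). Of the 7 dendritic cell markers, Zbtb46, Xcr1 and Siglech were below 1 FPKM throughout and 3 were tested. All 3 had a log2 difference below 0 (median −0.26), 1 of them at an unadjusted p under 0.05 in limma (7.85% of all genes). Of all these lists' markers with a row of their own, 0 were at 0 in every library.

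The comparison asks how these genes differ when marrow-derived Lyz2-expressing cells carry the deleting Cre. All 5 immunoproteasome genes were lower in both LYZKL libraries than in either WTKL library, at 75.8% to 81.8% of the WTKL mean. The median log2 difference was −0.35 for the immunoproteasome genes, −0.05 for the other tested members and 0.01 over all 12691 genes tested. Of those other members, the scarce Psma8 was the lowest relative to WTKL, at 77.0%. Differences are on the scale of log2(FPKM + 1), LYZKL minus WTKL, and were tested with limma with Benjamini-Hochberg adjustment over all genes tested. At an adjusted p under 0.05, limma called 0 of the 42 tested members, against 0.292% of all genes tested. It called 7 members lower at an unadjusted p under 0.05, the 5 immunoproteasome genes with Psma7 and Psmb2, where 7.85% of all genes met that rule, and 0 members higher, where 10.9% of all genes met it. Both LYZKL libraries lay below both WTKL libraries for 5 of 5 immunoproteasome genes and 16 of 37 others (24.4% of all genes tested), and above them for 0 and 5 (27.8%). In limma-voom on the reads rebuilt from FPKM, the adjusted p was under 0.05 for 4 members, all lower (3.54% of all genes): Psme1, Psmb8, Psme2 and Psmb9. The same test called 0 members higher (5.8% of all genes).

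These counts rest on few libraries. The median log2 difference of the 5 immunoproteasome genes was −0.39 without WTKL replicate 1 and −0.35 without WTKL replicate 2. It was −0.26 without LYZKL replicate 1 and −0.45 without LYZKL replicate 2. The log2 differences of all 5 stayed below 0 each time. The neutrophil and the T and NK cell markers also differed between these libraries. In LYZKL replicate 1, all 5 immunoproteasome genes were lower than in LYZKL replicate 2. There the neutrophil sum was 5601 FPKM against 3650 and the T and NK sum 60.1 FPKM against 75.0. In WTKL replicates 1 and 2 the neutrophil sums were 2403 and 1881 FPKM and the T and NK sums 107.8 and 101.5. The immunoproteasome sums there were 617.5 and 617.1 FPKM. The part of these cell types in the result was not tested. In bulk RNA, fewer cells of a type and less RNA per cell cannot be told apart, and neither can the effects of the Lyz2-Cre allele and of Tmem173 loss.

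Mean FPKM of the 3 immune cutting subunits differed by 8.18 times, a ratio that depends on the gene lengths used. Their log2 differences between the groups were of like size. Psmb8, the immune form of the chymotrypsin-like subunit, lies on chromosome 17 (34197721 to 34201454, plus strand, GRCm38). It was at 76.2 and 76.4 FPKM in WTKL replicates 1 and 2 and at 55.6 and 63.7 FPKM in LYZKL replicates 1 and 2. The WTKL libraries were almost level with each other, and both LYZKL libraries lay below them. The difference was −0.35 (SE 0.08, adjusted p = 0.135 in limma and 0.00981 in limma-voom).

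Psmb9, the immune form of the caspase-like subunit, lies 9956 bases from Psmb8 on the same chromosome (34181987 to 34187764, minus strand). It was the lowest of the 5 in level, at 8.57 and 10.3 FPKM in WTKL, against 6.91 and 7.503 FPKM in LYZKL, on 485, 858, 416 and 503 reads. The groups did not overlap, but the WTKL libraries were 19.6% apart. The difference was −0.34 (SE 0.10, adjusted p = 0.207 in limma and 0.0421 in limma-voom). In GENCODE M21, 5.8% of the exon bases of Psmb9 also lie in exons of Tap1 on the other strand. Of those of Psmb8, 14.7% lie in exons of the gene model Gm20496. Strand was not marked in these libraries, so reads there cannot be assigned to 1 gene.

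Psmb10, the immune form of the trypsin-like subunit, lies apart from the other pair on chromosome 8 (105935735 to 105938444, minus strand). It was at 31.9 and 32.2 FPKM in WTKL, against 24.0 and 28.4 FPKM in LYZKL. As for Psmb8, the WTKL libraries were close together and LYZKL replicate 1 was the lowest. The difference was −0.29 (SE 0.09, adjusted p = 0.223 in limma and 0.0704 in limma-voom), and Psmb10 was the 1 immunoproteasome gene that passed neither test.

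The PA28 cap genes showed the largest differences of the 42 tested members. Psme1, which encodes PA28 alpha, was the most abundant member in all 4 libraries, at 387.4 and 387.2 FPKM in WTKL, against 269.8 and 317.5 FPKM in LYZKL. It lies on chromosome 14 (55578123 to 55581529, plus strand), 5911 bases from Psme2. The difference was −0.40 (SE 0.09, adjusted p = 0.138 in limma and 0.00556 in limma-voom), on 9807 to 19560 reads per library. Psme2, which encodes PA28 beta (55587441 to 55591113, minus strand), was at 113.4 and 110.9 FPKM in WTKL, against 75.6 and 94.6 FPKM in LYZKL. Its difference was also −0.40 (SE 0.12, adjusted p = 0.197 in limma and 0.0168 in limma-voom). The partners of this mixed ring kept a nearly fixed ratio. Psme1 over Psme2 was 3.42 and 3.49 in WTKL and 3.57 and 3.36 in LYZKL, and the groups overlapped. Among all genes tested, 5.09% had a lower log2 difference than Psme1 and 8.54% a lower one than Psmb10.

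**Figure D1:**
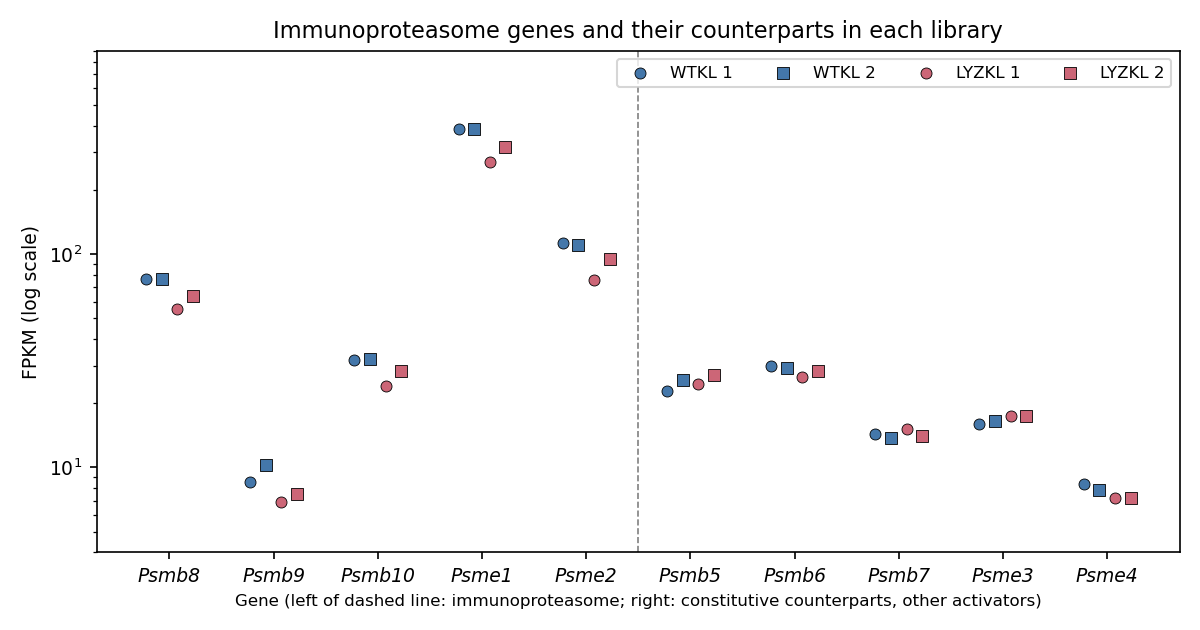
FPKM (log scale) of the 5 immunoproteasome genes, their 3 constitutive counterparts and the activators Psme3 and Psme4, 1 point per library (blue WTKL, red LYZKL, circles replicate 1, squares replicate 2). Left of the dashed line both red points lie below both blue points for each gene, while Psmb5 and Psmb7 overlap between groups.

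Within the LYZKL group, replicate 1 was below replicate 2 for all 5 immunoproteasome genes, by a gap of 8.58% to 25.1% of replicate 1, and for 25 of the 37 other tested members. In WTKL, replicate 1 was the lower for 3 of the 5 and for 23 of the 37. The gap was wider in LYZKL than in WTKL for 4 of the 5, most of all for Psme2, and wider in WTKL for Psmb9.

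The standard cutting subunits did not pass either test. Psmb5, the constitutive chymotrypsin-like subunit, was at 22.9 and 25.8 FPKM in WTKL, against 24.6 and 27.1 FPKM in LYZKL, and the groups overlapped. Its difference was 0.08, with a 95% interval in limma of −0.15 to 0.31. Psmb7, the trypsin-like subunit, was at 14.3 and 13.8 FPKM in WTKL, against 15.1 and 13.99 FPKM in LYZKL, again overlapping, with an interval of −0.13 to 0.22. Psmb6, the caspase-like subunit, was at 29.98 and 29.29 FPKM in WTKL, against 26.5 and 28.3 FPKM in LYZKL. The LYZKL libraries of Psmb6 lay below those of WTKL, with a difference of −0.11 and an interval of −0.26 to 0.04. Pseudogenes named after all 3 are annotated, and reads could have been split with these copies.

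Each immune subunit was set against the standard subunit whose place it takes, as a ratio of FPKM values within a library, which does not depend on the library total. Psmb8 over Psmb5 was 3.32 and 2.96 in WTKL and 2.26 and 2.35 in LYZKL. Both LYZKL ratios were lower, at 73.4% of the WTKL mean. Psmb9 over Psmb6 was 0.286 and 0.350 in WTKL and 0.261 and 0.266 in LYZKL, so that this immune form was the scarcer of its pair in every library. Psmb10 over Psmb7 was 2.23 and 2.33 in WTKL and 1.59 and 2.03 in LYZKL. For all 3 pairs the LYZKL libraries lay below those of WTKL, as they did for the 3 immune subunits by themselves. Of single genes tested, 24.4% lay below in this way, and no such share was computed for ratios. The log2 differences of the ratios were −0.44 for Psmb8, −0.27 for Psmb9 and −0.34 for Psmb10, and no p is given for them because the genes were chosen with results known. With 2 libraries against 2, an exact permutation test could not give a two-sided p below 0.333. Without WTKL replicate 2 the Psmb9 ratio differed by −0.12, and without LYZKL replicate 1 the Psmb10 ratio differed by −0.17.

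**Figure D2:**
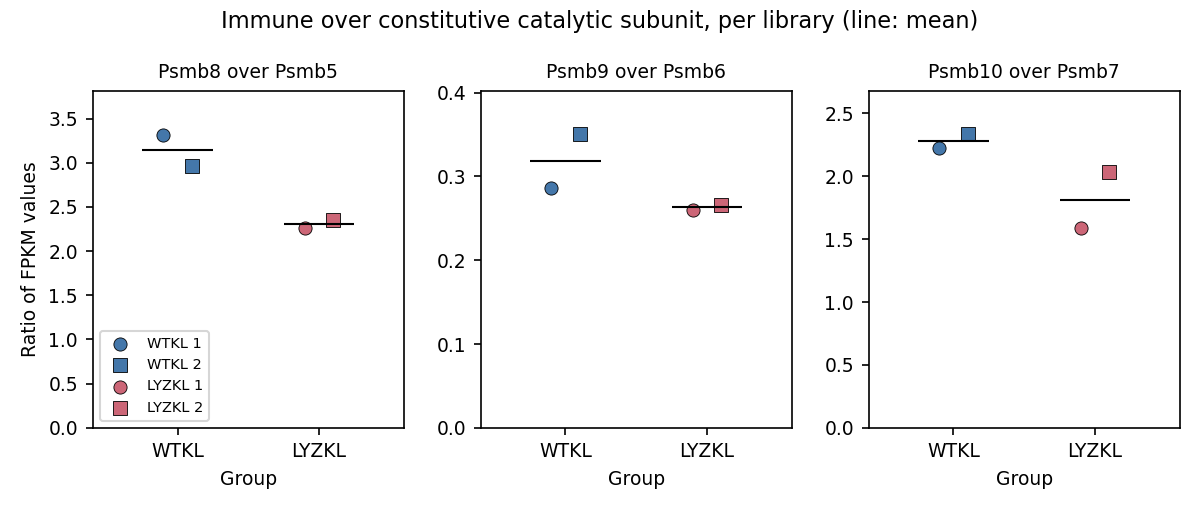
Ratio of FPKM values of each immune cutting subunit to its constitutive counterpart in each library, with a line at the mean of each group (n = 2), on axes that start at 0. The LYZKL points lie below the WTKL points in all 3 panels, closest for Psmb9 over Psmb6 (0.266 against 0.286).

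The rest of the 20S core tended to the lower side with small differences. All 7 alpha ring genes had a log2 difference below 0, with a median of −0.14, and so did the 4 beta ring genes without a cutting role, with a median of −0.13, where 47.9% of all genes tested lay below 0. Psma7 was at 33.7 and 31.7 FPKM in WTKL, against 27.7 and 28.8 FPKM in LYZKL. The groups were apart, and the difference was −0.20 (SE 0.06, unadjusted p = 0.0228 and adjusted p = 0.196 in limma). Psmb2 was at 12.8 and 14.3 FPKM in WTKL, against 11.7 and 11.1 FPKM in LYZKL, a difference of −0.23 (SE 0.08, unadjusted p = 0.0394 and adjusted p = 0.243 in limma). No other member outside the immunoproteasome set had a difference further below 0. With 1 library left out in turn, the difference ranged from −0.25 to −0.16 for Psma7 and from −0.31 to −0.15 for Psmb2.

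Psma4, the most abundant alpha ring gene, was at 125.9 and 126.7 FPKM in WTKL, against 105.2 and 119.3 FPKM in LYZKL, with an interval of −0.37 to 0.03. Psma6 had the smallest difference of the ring, at 85.9 and 84.3 FPKM in WTKL, against 80.4 and 85.2 FPKM in LYZKL. Psmb1, the most abundant of the other beta ring genes, was at 43.7 and 45.7 FPKM in WTKL, against 45.0 and 42.9 FPKM in LYZKL, and the groups of both genes overlapped. The sign of the Psmb1 difference, −0.02, turned to 0.0036 when the columns were scaled to equal sums. Although the core holds its subunits in equal numbers, mean levels of the 14 standard core genes ranged from 8.44 FPKM for Psmb3 to 119.3 FPKM for Psma4. That ratio of 14.1 also depends on the gene lengths used.

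The 19S regulator genes lay around 0. Of the 6 ATPase genes 2 were below 0 and 4 above, with a median log2 difference of 0.03, and of the 11 non-ATPase genes 7 were below and 4 above, with a median of −0.05. None of the 17 reached an unadjusted p under 0.05 in limma (smallest 0.111), and limma-voom called 0 of them. Psmc1, the most abundant ATPase gene, was at 128.2 and 139.7 FPKM in WTKL, against 122.2 and 130.0 FPKM in LYZKL, and the groups overlapped. Psmc5, with the largest positive difference of the ATPases (0.04), was at 46.8 and 53.7 FPKM in WTKL, against 49.4 and 53.9 FPKM in LYZKL. Its WTKL libraries differed more from each other than the groups did.

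Among the non-ATPases, Psmd7 had the largest negative difference (−0.12, interval −0.27 to 0.04), at 67.5 and 70.2 FPKM in WTKL, against 61.3 and 65.6 FPKM in LYZKL. Psmd4, a ubiquitin receptor and the most abundant of this group by its mean over the libraries, was at 67.5 and 68.5 FPKM in WTKL, against 62.4 and 68.9 FPKM in LYZKL. Psmd13 had the largest positive difference (0.06, interval −0.17 to 0.28), at 14.4 and 13.7 FPKM in WTKL, against 13.7 and 15.7 FPKM in LYZKL. For Psmd4 and Psmd13 the groups overlapped, and neither test called any of these 3 genes.

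**Figure D3:**
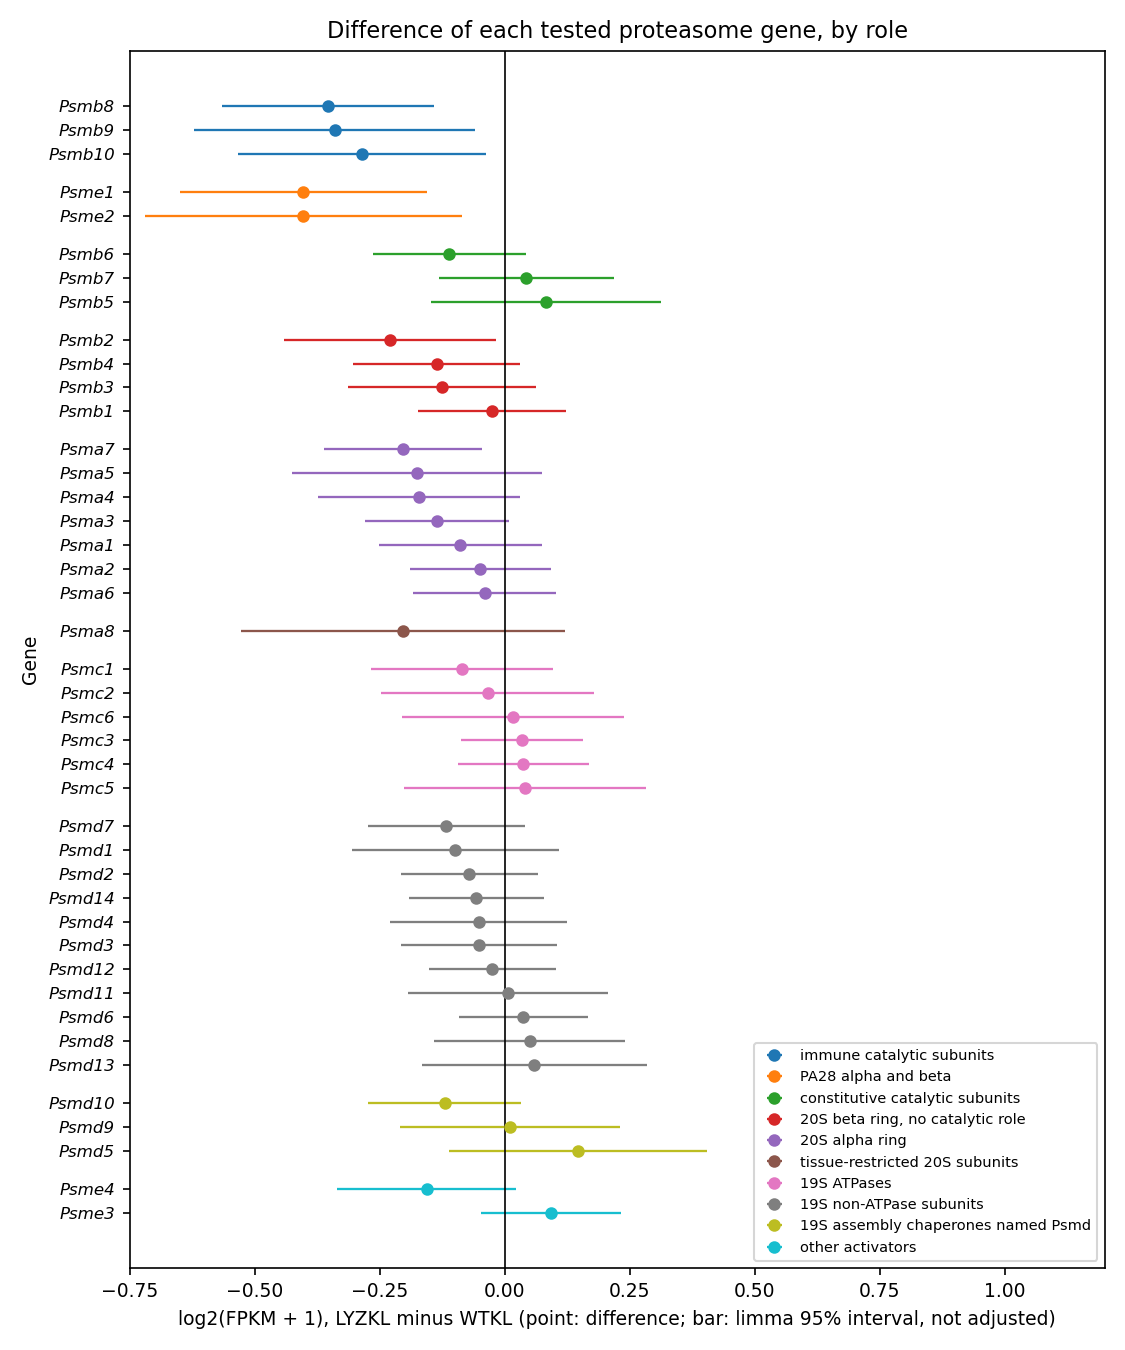
Difference in log2(FPKM + 1), LYZKL minus WTKL, for the 42 tested members by role, with limma 95% intervals that are not adjusted for the number of genes. The 5 immunoproteasome genes lie between −0.40 and −0.29 with intervals below 0, and of the other 37 only Psma7 and Psmb2 have intervals that leave out 0.

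Some genes with Psmd names encode chaperones that help build the 19S base and leave it. Psmd10, also known as gankyrin, was at 20.7 and 21.8 FPKM in WTKL, against 19.7 and 19.2 FPKM in LYZKL, a difference of −0.12 with an interval of −0.27 to 0.03. Psmd5 was at 2.16 and 2.49 FPKM in WTKL, against 2.66 and 2.69 FPKM in LYZKL, a difference of 0.15 with an interval of −0.11 to 0.40. The groups did not overlap for either gene, in opposite directions, and neither passed. Over all genes tested, both LYZKL libraries lay below both WTKL libraries for 24.4% and above them for 27.8%. Psmd9 differed by 0.01.

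The other activators had smaller differences in value than PA28 alpha and beta. Psme3, which encodes PA28 gamma, the nuclear member of that family, was at 16.1 and 16.5 FPKM in WTKL, against 17.4 and 17.5 FPKM in LYZKL. The LYZKL libraries were the higher, with a difference of 0.09 and an interval of −0.05 to 0.23 that includes 0. Psme1 over Psme3 was 24.1 and 23.5 in WTKL and 15.5 and 18.2 in LYZKL. Psme4, which encodes the activator PA200, was at 8.39 and 7.83 FPKM in WTKL, against 7.18 and 7.16 FPKM in LYZKL, a difference of −0.16 with an interval of −0.33 to 0.02. Neither gene passed in limma (adjusted p of 0.424 and 0.312) or limma-voom.

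The members restricted to other tissues were scarce. Psma8, an alpha subunit of the testis, was at 1.26 and 1.42 FPKM in WTKL, against 0.969 and 1.096 FPKM in LYZKL, on 27 to 55 reads, with an interval of −0.53 to 0.12. Psmb11, the cutting subunit of thymic epithelium, had 3 and 8 reads in WTKL and 0 and 2 in LYZKL, and was below the filter and not tested.

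By share, the immunoproteasome genes made up 31.2% and 30.7% of the summed FPKM of the 43 members in WTKL, against 24.96% and 27.5% in LYZKL. The PA28 pair alone held 25.3% and 24.7% in WTKL and 19.96% and 22.2% in LYZKL. The summed FPKM of the 5 was 617.5 and 617.1 in WTKL and 432.0 and 511.8 in LYZKL. That of the other 38 was 1363 and 1396 in WTKL and 1299 and 1348 in LYZKL. The groups were apart for both sums, more widely for the immunoproteasome genes.

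**Figure D4:**
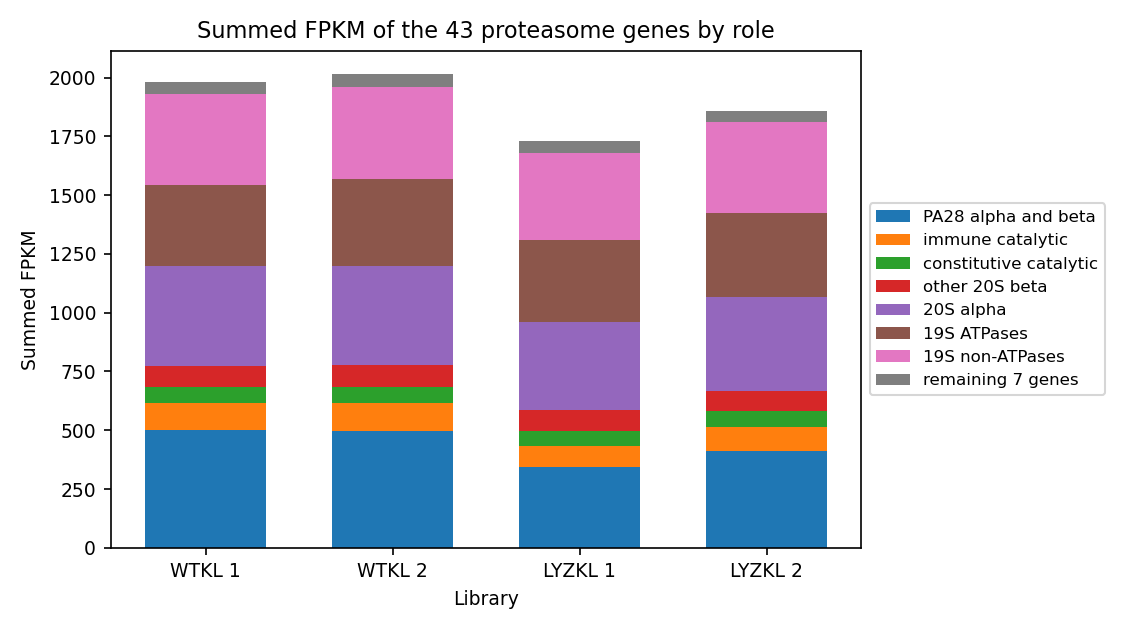
Summed FPKM of the 43 members in each library, stacked by role, on an axis that starts at 0. The PA28 block is 498.1 to 500.8 FPKM in WTKL and 345.5 to 412.2 FPKM in LYZKL, and the 19S blocks keep nearly the same height in all 4 libraries.

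Regulators and partners of these genes were read from lists of the pathway. Among the regulators of proteasome gene transcription given here, Irf1, Irf8 and Nlrc5, which act in the interferon response and MHC class I transcription, were lower in both LYZKL libraries. Each of these 3 had an adjusted p above 0.05 in limma (0.0663 to 0.0841) and below it in limma-voom (0.000474 to 0.000808). Over all genes tested, 24.4% were lower in both LYZKL libraries and limma-voom called 3.54% lower. Irf2, of the same list, overlapped between groups, at 24.9 and 23.6 FPKM in WTKL, against 24.3 and 24.2 FPKM in LYZKL. Irf8, a transcription factor of the macrophage and dendritic lineages, was at 44.5 and 45.2 FPKM in WTKL, against 28.6 and 32.1 FPKM in LYZKL. Irf1, a transcription factor induced by interferon, was at 123.5 and 111.8 FPKM in WTKL, against 80.8 and 85.3 FPKM in LYZKL. The regulators that drive the standard subunits did not pass in either test: Nfe2l1, which raises proteasome genes when degradation is blocked, was at 44.3 and 48.5 FPKM in WTKL, against 46.7 and 48.3 FPKM in LYZKL. Ddi2, the protease that activates the protein of Nfe2l1, was at 17.2 and 17.2 FPKM in WTKL, against 18.5 and 18.96 FPKM in LYZKL.

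Of the 10 genes of peptide supply and loading downstream of the immunoproteasome, 7 were lower at an unadjusted p under 0.05 in limma (7.85% of all genes) and 0 higher (10.9%). Limma called 0 after adjustment (0.292%), and limma-voom called 4, all lower (3.54%). Tap1, the peptide transporter that shares the promoter region shown above with Psmb9, was at 31.2 and 31.9 FPKM in WTKL, against 20.9 and 24.3 FPKM in LYZKL. Tap2, its partner, was at 39.0 and 38.5 FPKM in WTKL, against 25.5 and 29.95 FPKM in LYZKL. The differences of Tap1 and Tap2 were both −0.47 (SE 0.09 each, adjusted p = 0.105 and 0.109 in limma). B2m, the light chain of class I, was at 1193 and 1206 FPKM in WTKL, against 965.4 and 930.9 FPKM in LYZKL. The loading factor gene Tapbp was at 93.1 and 100.2 FPKM in WTKL, against 69.1 and 75.7 FPKM in LYZKL.

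Factors that build or inhibit the 20S core, or attach to the 19S regulator, were listed apart. Of 6 assembly and inhibitor genes, 5 were tested and 0 had an unadjusted p under 0.05 in limma (7.85% of all genes lower, 10.9% higher). Pomp, which encodes the maturation protein of the core, was at 15.8 and 15.2 FPKM in WTKL, against 12.5 and 14.4 FPKM in LYZKL (adjusted p = 0.316 in limma). Psmf1, which encodes an inhibitor of the core, was at 1.52 and 1.52 FPKM in WTKL, against 1.28 and 0.949 FPKM in LYZKL (adjusted p = 0.390 in limma). In limma-voom the unadjusted p was 0.0289 for Pomp and 0.0174 for Psmf1, both lower. In that test 1189 of 12676 genes were lower at an unadjusted p under 0.05, and after adjustment it called 0 of the list. Of 8 genes of 19S-associated proteins under other names, 0 had an unadjusted p under 0.05 in limma. Shfm1, a small lid subunit, was the nearest, at 82.5 and 71.0 FPKM in WTKL, against 94.3 and 86.2 FPKM in LYZKL. Its unadjusted p was 0.0658 in limma and 0.0111 in limma-voom, where its adjusted p was 0.0906.

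**Figure D5:**
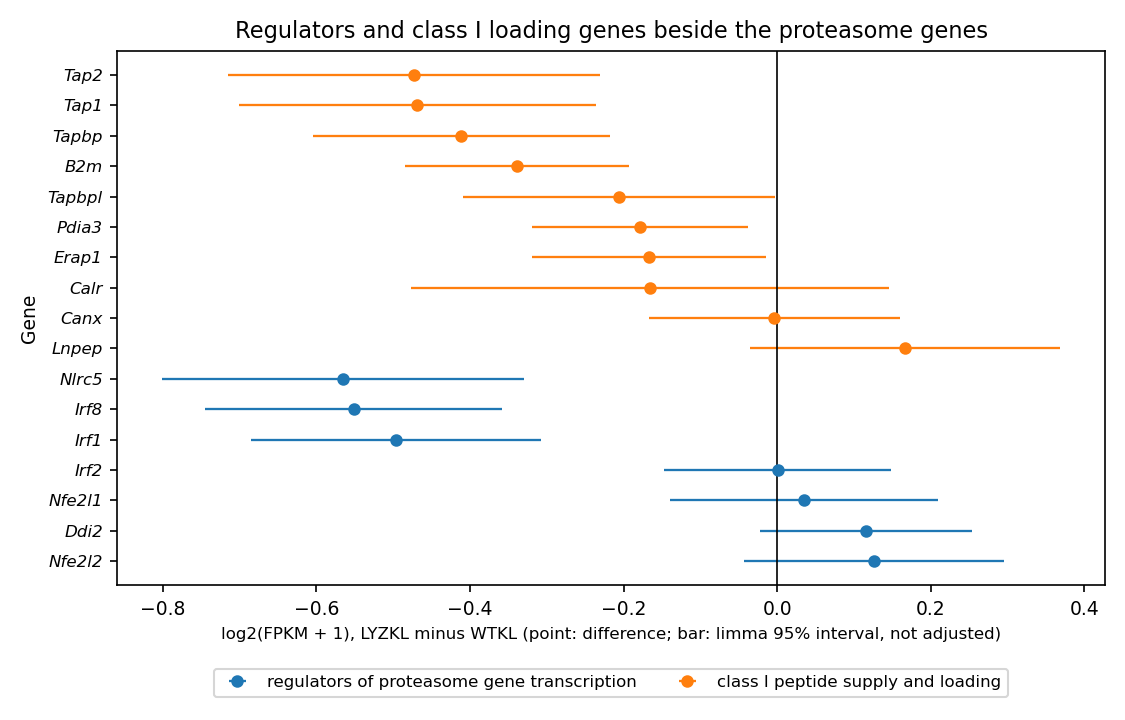
Difference in log2(FPKM + 1), LYZKL minus WTKL, for regulators of proteasome genes (blue) and genes of class I peptide supply and loading (orange), with limma 95% intervals that are not adjusted. Nlrc5, Irf8 and Irf1 lie between −0.56 and −0.50 and Tap1 and Tap2 at −0.47, while Irf2, Nfe2l1, Ddi2 and Nfe2l2 have intervals that include 0.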

How the data were processed

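Poly(A) RNA of sorted lung macrophages was sequenced as paired reads without marking strand, per the labels' protocols. The authors deposited FPKM values of all 4 libraries in 1 table. Per the submitters' processing notes, the tools were featureCounts 2.0.0, HISAT2 2.0.5 and Cell Ranger 6.1.2, and the build was mm10, with no roles stated. No source used here gives the annotation or gene lengths. Samples were grouped by title, and all 4 carry 1 batch label.

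Limma 3.58.1 in R 4.3.3 was run on log2(FPKM + 1) for 12691 genes, those averaging 1 FPKM or more, with its variance trend, two-sided, with Benjamini-Hochberg adjustment and a threshold of 0.05 (4.34 degrees of freedom, 2 from the samples). This scale understates changes of low genes. With exon lengths of GENCODE M21, values below 0.3 FPKM gave the library totals. Whole reads then followed for 99.88% of the genes tested: for 10010 the annotated length sufficed (tolerance 0.05 read), and for 2666 a length was searched between 50 and 100000 (tolerance 0.003). Limma-voom on those reads was an alternative, with its spread also taken from the 2 libraries per group. A high number of reads lowers counting error only. Scripts were tested on simulated data. Alternatives were other pseudocounts, filters and scalings, no trend, a replicate block and leaving out each library. Named were the immunoproteasome genes, their counterparts, Psme3, Psme4, per other role list the largest rise, largest fall and most abundant member, and up to 3 partner genes per list; Psmd9, Nfe2l1, Nfe2l2, Ddi2, Irf2, Nlrc5, Tap2 and Uba1 were added after their values were seen. Members, lists and rules were chosen with earlier results of these data known. Some genes of the lists, and some recipient alleles, are not reported here.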

Additional observations from a re-analysis of the deposited data

How the results depend on the processing

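The log2 differences of Psmb8, Psmb9, Psmb10, Psme1 and Psme2 were below 0 under all 13 alternatives, from −0.56 (Psme2 without LYZKL replicate 2) to −0.17 (Psmb10 without LYZKL replicate 1). Their adjusted p ranged from 0.00556 to 0.563 in limma and limma-voom. Limma-voom on rebuilt reads called 4 immunoproteasome genes where limma called 0: Psmb8 (−0.36), Psmb9 (−0.39), Psme1 (−0.40) and Psme2 (−0.40); the cause was not tested. With 1 library left out in turn, the median log2 difference of the immunoproteasome genes ranged from −0.45 to −0.26. That of the other members ranged from −0.07 to −0.04. In these fits the lone library is assumed to vary like the other group. The number of other members at an unadjusted p under 0.05 was 1 without the trend and 1 with equal column sums, and 3 without a filter, with median-of-ratios scaling and in limma-voom. Without the trend, 4 immunoproteasome genes were under that threshold and Psmb10 was not. Equal column sums moved the median of the other members to −0.0235, that of all genes tested from 0.01 to 0.03, and the counts of all genes at an unadjusted p under 0.05 from 996 lower and 1385 higher to 789 and 1603. Alternatives were computed singly for the 22 named members, and the differences of 6 of these changed sign. Psmb1 was at 0.0036 with equal column sums. With 1 library left out, Psmb1 ranged from −0.0585 to 0.0093, Psmc5 from −0.057 to 0.14, Psmb7 from −0.0084 to 0.095, Psma6 from −0.081 to 0.0016, Psmd4 from −0.12 to 0.019 and Psmd13 from −0.031 to 0.15. Over all genes limma called 37 in the main setting, 340 at a mean of at least 5 FPKM, 27 at a pseudocount of 5, and 0 without the trend, without a filter or after leaving out any library, while limma-voom called 449 lower and 735 higher. The titles number the replicates 1 and 2 in both groups, but nothing says that a number marks a shared animal or day. Deviations of same-numbered libraries correlated at 0.16 across genes. With the replicate block limma called 0 genes in all, and 1 of the other members was at an unadjusted p under 0.05. Depth limits Psma8 and Psmb11 (at most 55 reads) most.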

Other observations

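Genes of ubiquitin, whose protein tags substrates for the proteasome, and of its activation gave these values. Ubb, a polyubiquitin gene, was at 1435 and 1519 FPKM in WTKL, against 1620 and 1582 FPKM in LYZKL. Rps27a, which encodes ubiquitin fused to a ribosomal protein, was at 55.8 and 53.8 FPKM in WTKL, against 50.3 and 47.8 FPKM in LYZKL, lower in both, with an unadjusted p of 0.0395 in limma. The gene of the activating enzyme Uba1 lay between 22.0 and 22.5 FPKM in all 4 libraries. None of these 3 passed the adjusted threshold in limma.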
